A study of Mus musculus with 6 samples.

Results

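Genes of mitosis and DNA replication were read across 6 arrays of fetal mouse testis. The germ cell gene Nanos2 was heterozygous, absent, or absent with a transgene for a shortened NANOS2. The set holds 42 listed genes, 26 of mitosis and 16 of replication, taken by name with earlier results of these data already known. Every non-control probe whose accession belongs to one of them was used, which gave 50 of the array's 41174 probes, for 39 of the genes among 12981 genes with a tested probe. Mki67, Cenpf and Gins1 had no matched probe and are not analysed here. None of the 39 genes measured passed the test between genotypes. In the main processing their differences were small, with every change under 1.5-fold by a gene's brightest probe. That limit did not hold under every alternative processing.

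A dividing cell makes these messages in waves. In late G1 and S phase the E2F factors switch on genes that load and fire replication origins, such as Cdc6, Cdt1 and the Mcm genes, which encode the ring-shaped helicase that unwinds DNA. In G2 and mitosis a second set, which the MuvB complex and FoxM1 switch on, encodes Cdk1 and its cyclins, the Aurora and Polo kinases, the spindle checkpoint and the motors of the spindle. Cells that leave the cycle for G0 or G1 turn both waves down. In the fetal testis the male germ cells enter such a mitotic arrest around the age studied, while Sertoli cells and other somatic cells go on dividing, so RNA of the whole gonad holds both. NANOS2 is an RNA-binding protein of male germ cells that works with the CCR4-NOT deadenylation complex.

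The gonads were from E14.5 males on a mixed ICR and N2 background. The 3 genotypes had 2 arrays each: Nanos2+/-, Nanos2-/-, and Nanos2-/-_Tg+, which lacks both Nanos2 alleles and carries a transgene for FLAG-tagged Nanos2-ΔN10, a NANOS2 without its N-terminal residues, driven by the Nanos2 enhancer in 1 transgenic line. The knockout allele carries LacZ in the Nanos2 locus. Each array was hybridised with Cy3-labelled RNA made from 0.2 µg of total RNA. One slide carried the Nanos2+/- pair and another slide the remaining 4 arrays. In comparisons with Nanos2+/-, genotype and slide therefore cannot be told apart, whereas Nanos2-/-_Tg+ and Nanos2-/- shared a slide. The labels give replicate numbers 1 and 2, but do not say what a number stands for or whether the 2 samples were separate animals, so p-values measure only the spread between these samples, which may be technical. An exact permutation test of 2 arrays against 2 cannot give a two-sided p below 0.333, and limma fitted across all probes was used instead.

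Values are log2 of the spot intensity after each array was scaled to a common median, and a change is a difference of such values, so 1 unit is 2-fold. Nanos2 itself stood at 9.42 and 10.78 in Nanos2+/-, at the floor of 2.32 and not well above background on both Nanos2-/- arrays, and at 13.28 and 14.25 in Nanos2-/-_Tg+. It was at least 89.7-fold higher in Nanos2+/- and at least 1140-fold higher in Nanos2-/-_Tg+ than in Nanos2-/-. These bounds set the bright genotype's mean against the lowest signal well above background on each dim array. The limma fit used the floored values instead (adjusted p of 0.00198 and 0.000451), so its p-values do not test the bounds. Germ cell and Sertoli cell markers were well above background on all 6 arrays, 7 of 7 in each list, as were 5 of 5 markers each of endothelium and macrophages, 5 of the 5 measured for fetal Leydig cells, 5 of 6 for red blood cells and 4 of 5 for mesonephros. In such mixed tissue, fewer cells of a type and less RNA per cell cannot be told apart.

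The promoters of these genes carry short motifs through which the 2 waves are set. The RefSeq promoter table of the GRCm38.p6 assembly, with 250 bases before and 50 after each start, held 36 promoters of 35 of the 42 genes (Mcm7 has 2), among 32851 in all. Of these, 6 are shown for the first 250 bases, read 5′ to 3′ on the gene's strand up to the base before the start, to let the motifs be seen beside the genes whose values follow. Capitals mark, on either strand, the E2F motif (TTTCCCGC or TTTGGCGC), the cell cycle homology region or CHR, which the MuvB complex binds (TTTGAA or TTCGAA), and CCAAT, the NF-Y motif.
Ccnb1, chr13:100786487-100786736, minus strand: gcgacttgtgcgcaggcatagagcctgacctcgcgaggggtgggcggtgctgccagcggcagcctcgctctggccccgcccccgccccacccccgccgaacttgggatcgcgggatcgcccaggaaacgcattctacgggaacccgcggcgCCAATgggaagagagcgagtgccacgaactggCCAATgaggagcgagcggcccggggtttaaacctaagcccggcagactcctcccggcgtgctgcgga
Cdc20, chr4:118437344-118437593, minus strand: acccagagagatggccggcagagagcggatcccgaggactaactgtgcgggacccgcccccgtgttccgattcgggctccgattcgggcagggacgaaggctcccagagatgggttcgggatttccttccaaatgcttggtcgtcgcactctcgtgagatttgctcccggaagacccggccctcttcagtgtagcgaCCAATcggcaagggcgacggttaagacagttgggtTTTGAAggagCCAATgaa
Top2a, chr11:99024190-99024439, minus strand: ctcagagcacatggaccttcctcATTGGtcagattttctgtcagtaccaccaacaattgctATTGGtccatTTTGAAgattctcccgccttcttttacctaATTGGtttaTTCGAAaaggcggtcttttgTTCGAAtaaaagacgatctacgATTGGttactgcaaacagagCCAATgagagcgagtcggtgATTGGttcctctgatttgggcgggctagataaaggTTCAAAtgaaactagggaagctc
Mcm5, chr8:75109259-75109508, plus strand: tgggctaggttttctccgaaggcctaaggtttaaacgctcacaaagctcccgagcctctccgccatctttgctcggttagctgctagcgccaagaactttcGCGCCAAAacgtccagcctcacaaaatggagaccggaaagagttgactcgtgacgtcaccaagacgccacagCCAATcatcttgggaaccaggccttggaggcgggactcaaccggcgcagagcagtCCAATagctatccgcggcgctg
Mcm6, chr1:128359706-128359955, minus strand: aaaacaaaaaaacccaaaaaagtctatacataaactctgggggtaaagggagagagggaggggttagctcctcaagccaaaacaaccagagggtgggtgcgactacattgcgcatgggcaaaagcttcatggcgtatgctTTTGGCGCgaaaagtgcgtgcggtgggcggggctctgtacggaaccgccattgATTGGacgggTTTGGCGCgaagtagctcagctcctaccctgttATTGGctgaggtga
Pola1, chrX:93632156-93632405, minus strand: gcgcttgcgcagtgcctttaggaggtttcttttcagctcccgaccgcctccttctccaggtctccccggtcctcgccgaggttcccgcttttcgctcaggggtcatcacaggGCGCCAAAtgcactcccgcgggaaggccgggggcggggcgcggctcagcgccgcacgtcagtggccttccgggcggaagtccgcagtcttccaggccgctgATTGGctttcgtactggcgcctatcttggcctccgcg

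The mitosis and replication promoters differed in which letters they held. By the letters searched, the E2F motif was in 7 of 15 replication promoters (46.7%) and in 0 of 21 mitosis promoters. Over all promoters it was in 1.56%. Other forms of the E2F motif and of the CHR were not searched, so an absence covers only these letters. The CHR was in 16 of 21 mitosis promoters (76.2%) and 3 of 15 replication promoters (20%), against 19.2% of all. CCAAT was frequent in both, in 18 of 21 (85.7%) and 12 of 15 (80.0%), against 37.4% of all promoters. A CHR and a CCAAT stood together in 16 mitosis promoters (76.2%), against 7.52% of all. The shown promoters follow this split: the Cdc20 stretch holds a CHR at position -18 from the start with CCAAT on each side of it, and Mcm6 holds the E2F motif at positions -110 and -47. Ccnb1 has CCAAT at -99 and -67 and neither TTTGAA nor TTCGAA in its window, which does not speak for other CHR forms. In 1 member promoter the letters of different motifs overlap. A match is a description of the sequence and not of binding.

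**Figure D1:**
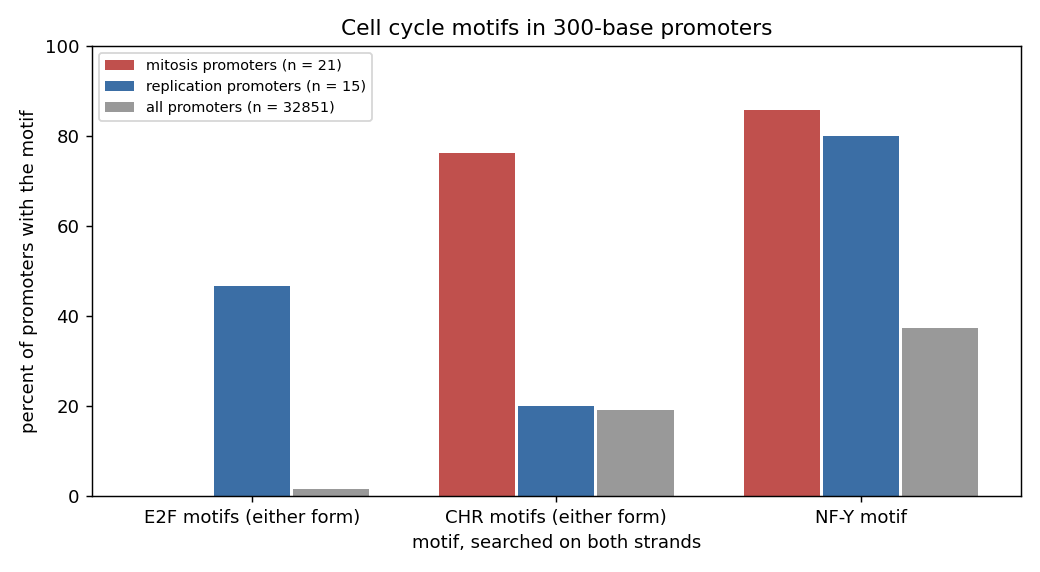
Share of promoters, in percent, that hold the letters searched for the E2F motif, the CHR or the NF-Y motif. It is given for the 21 mitosis promoters, the 15 replication promoters and all 32851 promoters of the table. Other forms of the motifs were not searched. The E2F bar is at 46.7% for replication and 0 for mitosis, and the CHR bar at 76.2% for mitosis and 20% for replication.

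The genes were strongly detected in the gonad. Of their 50 probes, 48 were well above background on all 6 arrays, and 49 passed the filter of being so on both arrays of at least 1 genotype. The exceptions were a second Cdk1 probe, well above background on 4 arrays, and a second Kif11 probe, which was not tested. By the brightest tested probe, which stands for a gene from here on, 29 of the 39 genes lay in the brightest of 4 equal classes of mean signal over all 26710 probes tested, 9 in the next, 1 in the one after and 0 in the dimmest. More than 1 tested probe was available for 8 genes.

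**Figure D2:**
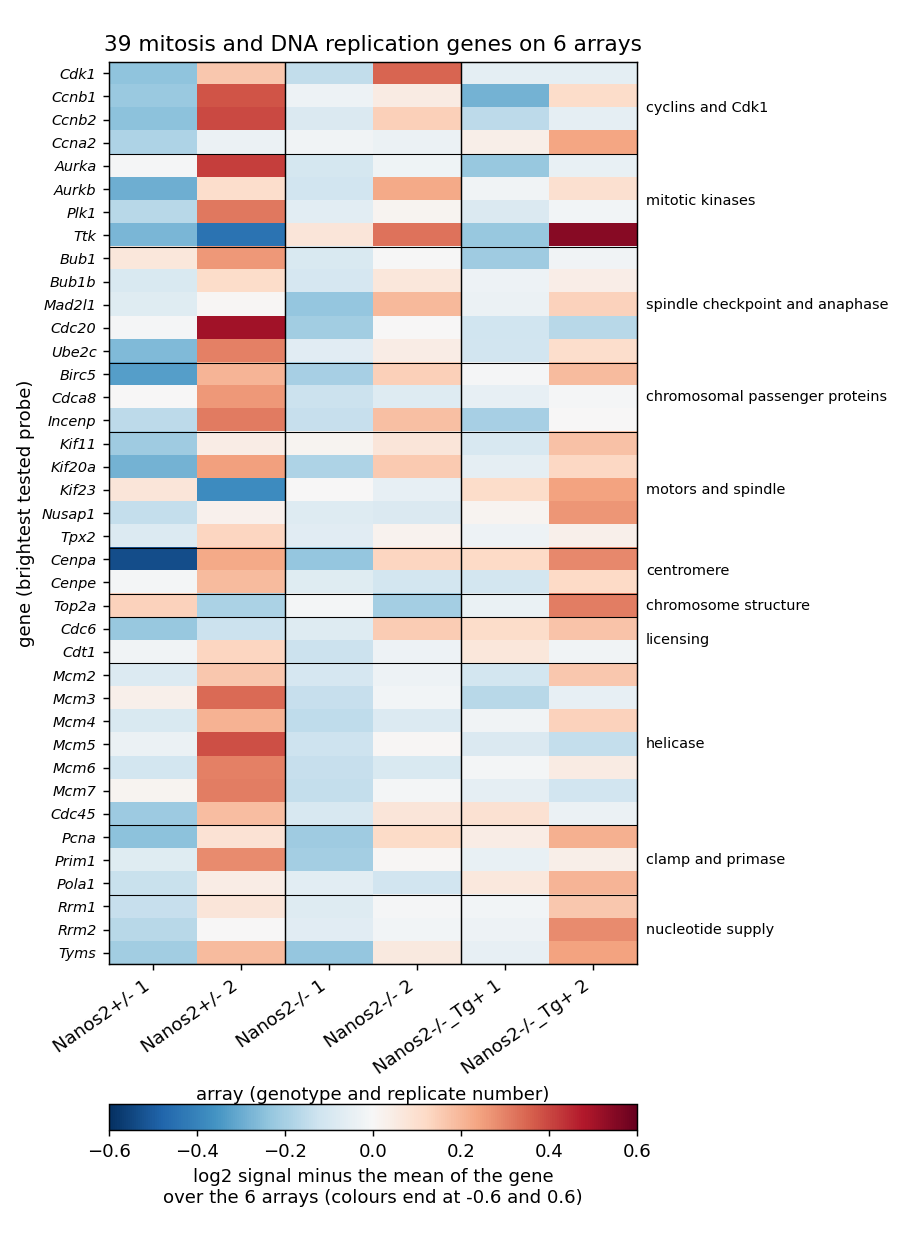
Log2 signal of the 39 genes on each of the 6 arrays, with each gene centred on its mean and the genes ordered by role. The Nanos2+/- replicate 2 column is the highest in 23 genes, and no replicate 1 column is the highest in any. The median of all probes tested, centred in the same way, is also highest on Nanos2+/- replicate 2 (0.13).

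Between Nanos2-/- and Nanos2+/-, the question was whether loss of NANOS2 moved the division genes of the gonad. The median change of the 39 genes was -0.05, against -0.04 for all probes tested, with a range of -0.35 to 0.57. Of the genes, 14 were higher (35.9%, against 44.6% of all probes) and 25 lower. No member probe was called (limma adjusted p below 0.05 and at least 2-fold), where 0.0674% of all probes were. At an unadjusted p below 0.05 stood 1 of the 49 member probes, a dimmer probe of Top2a, against 9.08% of all probes. The lowest adjusted p among the genes was 0.607. Standard errors of a change were 0.18 to 0.28, and the 95% interval lay within 2-fold in either direction for 38 of the 39 genes, the exception being Ttk.

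Within the cyclin-dependent kinase group, which drives entry into mitosis, values of the 2 genotypes interleaved. Cdk1, the kinase itself, had log2 signals of 12.09 and 12.49 in Nanos2+/-, 12.18 and 12.68 in Nanos2-/-, and 12.27 on both Nanos2-/-_Tg+ arrays. Ccnb1, the cyclin B1 that activates it at mitosis, had 11.21 and 11.81, then 11.40 and 11.48, then 11.15 and 11.54 in the same order. The values of both genes overlap among all 3 genotypes, and their spread within Nanos2+/- is wider than the differences between genotypes. Ccna2, the cyclin A2 of S phase and G2, was at 13.03 and 13.18 in Nanos2+/-, 13.19 and 13.18 in Nanos2-/-, and 13.25 and 13.45 in Nanos2-/-_Tg+. Both Nanos2-/-_Tg+ values were above the others, by 0.24 (SE 0.185) over the Nanos2+/- mean. Over the 4 genes of the group, Ccnb2 included, the changes against Nanos2+/- ran between -0.07 and 0.14 in Nanos2-/- and between -0.18 and 0.24 in Nanos2-/-_Tg+.

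The mitotic kinases held the largest single difference. Ttk encodes the Mps1 kinase of the spindle checkpoint. It had log2 signals of 6.99 and 6.82 in Nanos2+/-, 7.34 and 7.59 in Nanos2-/-, and 7.04 and 7.81 in Nanos2-/-_Tg+. All 4 arrays without endogenous Nanos2 stood above both Nanos2+/- arrays, by 0.57 in Nanos2-/- (SE 0.274, 95% interval -0.07 to 1.21, limma adjusted p = 0.607) and by 0.52 in Nanos2-/-_Tg+ (limma adjusted p = 0.528). Aurka, the Aurora A kinase of the spindle poles, went the other way, with 14.00 and 14.42, 13.90 and 13.98, then 13.78 and 13.96. Its changes from Nanos2+/- were -0.27 and -0.34 (SE 0.211, limma adjusted p of 0.779 and 0.602). Aurkb, the Aurora kinase of the chromosomal passenger complex, was at 10.29 and 10.69, then 10.47 and 10.81, then 10.56 and 10.68. Plk1, the Polo kinase, was at 13.79 and 14.27, 13.89 and 13.97, then 13.87 and 13.94, and its values overlap among the genotypes, as do those of Aurkb.

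Cdc20, which activates the anaphase-promoting complex once the checkpoint is met, had the most negative change of the set. Its log2 signals were 14.89 and 15.40 in Nanos2+/-, 14.69 and 14.90 in Nanos2-/-, and 14.78 and 14.73 in Nanos2-/-_Tg+. The change was -0.35 in Nanos2-/- (SE 0.223, 95% interval -0.87 to 0.17, limma adjusted p = 0.719) and -0.39 in Nanos2-/-_Tg+ (limma adjusted p = 0.57). Nanos2+/- replicate 2 stood apart at the top, while replicate 1 lay within the range of the Nanos2-/- arrays. Of the other checkpoint and anaphase genes, Bub1b and Mad2l1 of the checkpoint and the ubiquitin-conjugating enzyme gene Ube2c changed by -0.03 to 0.08 against Nanos2+/- in both genotypes. The checkpoint kinase Bub1, at 12.22 and 12.41 in Nanos2+/-, was lower on all 4 other arrays, at 12.06 and 12.15 in Nanos2-/- and 11.94 and 12.13 in Nanos2-/-_Tg+.

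The chromosomal passenger genes, which correct attachments of chromosomes to the spindle, gave small changes of both signs. Birc5, or survivin, was at 15.03 on Nanos2+/- replicate 2 and 0.53 lower on replicate 1, with 14.63 and 14.97 in Nanos2-/- and 14.82 and 15.02 in Nanos2-/-_Tg+. Its complex partner Incenp was at 14.76 and 15.23, 14.78 and 15.10, then 14.72 and 14.92. In both genes the gap between the Nanos2+/- arrays was larger than any gap between genotype means. Cdca8, or borealin, was lower on all 4 arrays lacking endogenous Nanos2, with changes of -0.23 and -0.16. Motors and spindle genes (Kif11, Kif20a, Kif23, Nusap1 and Tpx2) changed by -0.05 to 0.13 in Nanos2-/- and -0.03 to 0.33 in Nanos2-/-_Tg+.

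Centromere and chromosome genes included a gene whose probes parted. Cenpa, the histone H3 variant of centromeres, was at 10.35 and 11.11 in Nanos2+/-, 10.65 and 11.01 in Nanos2-/-, and 11.00 and 11.17 in Nanos2-/-_Tg+, with a change of 0.36 in Nanos2-/-_Tg+ (SE 0.28, limma adjusted p = 0.697). Cenpe, the kinetochore motor, was at 14.31 and 14.51, then 14.25 and 14.21, then 14.21 and 14.44 by its brightest probe. Its dimmer probes overlapped between Nanos2+/- and Nanos2-/-, at 8.83 and 8.59 against 8.79 and 8.66, and at 7.15 and 6.22 against 6.45 and 6.54. Top2a, the topoisomerase that untangles sister chromatids, was at 11.20 and 10.87 in Nanos2+/-, 11.05 and 10.86 in Nanos2-/-, and 11.02 and 11.37 in Nanos2-/-_Tg+ by its brightest probe. A dimmer Top2a probe gave 8.0 and 8.12, then 7.37 and 7.14, then 7.10 and 7.18, so that both Nanos2+/- values stood above all others. By that probe the change was -0.81 in Nanos2-/- (SE 0.187, unadjusted p = 0.00292, limma adjusted p = 0.257) and -0.92 in Nanos2-/-_Tg+ (unadjusted p = 0.00136, limma adjusted p = 0.145), while the brightest probe gave -0.08 and 0.17. The probes disagree, and neither passed the test. Why they part was not tested.

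Among the replication genes, 4 were higher (26.7%, against 44.6% of all probes) and 11 lower in Nanos2-/- than in Nanos2+/-, with a median of -0.10. Cdc6, which loads the helicase at origins, stood at 9.26 and 9.36 in Nanos2+/-, 9.41 and 9.64 in Nanos2-/-, and 9.6 and 9.66 in Nanos2-/-_Tg+, so both Nanos2+/- arrays lay below the other 4 by this probe (changes of 0.21 and 0.32). A second Cdc6 probe, at 8.84 and 9.46, 8.97 and 9.27, then 9.15 and 9.19, overlapped in all genotypes. Its licensing partner Cdt1 was at 14.47 and 14.62, 14.36 and 14.46, then 14.56 and 14.47.

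Of the 7 helicase genes measured, 6 were lower in Nanos2-/-, with a median of -0.21 and a range of -0.26 to 0.00. Over all probes 14783 of 26710 were lower, with a median of -0.04. The helicase subunit Mcm3 had log2 signals of 11.92 and 12.23 in Nanos2+/-, 11.75 and 11.87 in Nanos2-/-, and 11.72 and 11.84 in Nanos2-/-_Tg+ (change of -0.26 in Nanos2-/-, SE 0.196, limma adjusted p = 0.761). Mcm7, a subunit of the same ring, had 14.75 and 15.04, 14.59 and 14.72, then 14.68 and 14.62 (change of -0.24 in Nanos2-/-, SE 0.192, limma adjusted p = 0.784). In both, all 4 arrays lay below both Nanos2+/- arrays. Mcm5 was at 13.96 and 14.38, 13.87 and 14.00, then 13.91 and 13.85, and Mcm2 at 12.56 and 12.80, 12.54 and 12.61, then 12.53 and 12.80. By array, the median of the 7 genes around their own means was -0.08 and 0.30 in Nanos2+/-, -0.14 and -0.02 in Nanos2-/-, and -0.05 and -0.03 in Nanos2-/-_Tg+. Only Nanos2+/- replicate 2 stood above 0, and replicate 1 of that genotype lay within the range of the other 4 arrays.

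The clamp, the primase and the genes that supply nucleotides showed the same spread. Pcna, the sliding clamp of the polymerases, was at 13.96 and 14.29 in Nanos2+/-, 13.99 and 14.32 in Nanos2-/-, and 14.25 and 14.42 in Nanos2-/-_Tg+. Pola1, the catalytic subunit of the polymerase that starts each strand with primase, was at 11.50 and 11.68, 11.57 and 11.52, then 11.70 and 11.84. Both Nanos2-/-_Tg+ values of Pola1 were the highest, while Pcna overlapped. Rrm2, a subunit of the reductase that makes deoxynucleotides, was at 10.74 and 10.91, 10.84 and 10.89, then 10.88 and 11.19. Tyms, which makes thymidylate, was at 13.54 and 13.94, 13.52 and 13.81, then 13.70 and 13.99. Neither separates the genotypes.

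Counting genes whose 2 arrays lay wholly to one side, 2 of 39 were above (Ttk and Cdc6) and 7 below (Aurka, Bub1, Cdca8, Cenpe, Cdt1, Mcm3 and Mcm7) in Nanos2-/- against Nanos2+/-. Over all probes tested 14.3% lay above and 21.7% below, and the members' shares were 5.13% and 17.9%. The direction of the set changed with single arrays and with the scaling. The median became 0.07 without Nanos2+/- replicate 2 and 0.02 without Nanos2-/- replicate 1 (all probes 0.06 and 0.01), and -0.23 without Nanos2+/- replicate 1 (all probes -0.17). In addition, 25 of 39 genes were higher after quantile normalization (64.1%, against 52.4% of all probes), with a median of 0.03. Under normexp background correction all 39 were higher, against 75.4% of all probes. The median was then 0.89 against 0.56 for all probes, and the helicase genes were higher too.

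Nanos2-/-_Tg+ was set against the same Nanos2+/- arrays, so this comparison shares its controls with the one before. The median change was -0.01, as over all probes, with a range of -0.39 to 0.52. Of the genes, 19 were higher (48.7%, against 48.3% of all probes) and 20 lower. No member probe was called, against 0.105% of all probes, and 2 of 49 stood at an unadjusted p below 0.05 (the dimmer Top2a probe and a second Cdca8 probe, both lower), against 11.6% of all. The lowest adjusted p among the genes was 0.528, and the 95% interval was within 2-fold for 37 of 39. Wholly above lay 5 genes (Ccna2, Ttk, Kif23, Cdc6 and Pola1; 12.8%, against 18.6% of all probes) and wholly below lay 7 (Aurka, Bub1, Cdc20, Cdca8, Mcm3, Mcm5 and Mcm7; 17.9%, against 20.3%). Kif23, a motor of the central spindle needed for cell separation, was at 10.84 and 10.39 in Nanos2+/-, 10.77 and 10.72 in Nanos2-/-, and 10.88 and 11.01 in Nanos2-/-_Tg+. Its change of 0.33 (SE 0.212, limma adjusted p = 0.618) was carried mostly by the low Nanos2+/- replicate 2, replicate 1 lying just below the nearer Nanos2-/-_Tg+ array.

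The comparison of Nanos2-/-_Tg+ with Nanos2-/- lies within 1 slide and asks whether the transgene moved these genes. It gave the narrowest differences, from -0.16 to 0.26, with a median of 0.07 against 0.03 for all probes. Here 25 genes were higher (64.1%, against 56.8% of all probes) and 14 lower. Higher were 12 of the 15 replication genes (80%, median 0.11) and 13 of the 24 mitosis genes (54.2%, median 0.01). No member probe was called or stood at an unadjusted p below 0.05, where 0.0187% and 2.74% of all probes did, and every adjusted p was 1. The 95% interval was within 2-fold for all 39 genes and within 1.5-fold for 21, and the bounds reached from -0.72 to 0.91 at the widest.

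The 5 largest changes in this comparison were in genes of several roles. Cenpa was higher by 0.26 in Nanos2-/-_Tg+ (SE 0.28, 95% interval -0.40 to 0.91), Top2a by 0.24 (95% interval -0.27 to 0.75) and Pola1 by 0.23 (95% interval -0.20 to 0.66). Nusap1, which bundles spindle microtubules, was at 11.54 and 11.53 in Nanos2-/- and 11.63 and 11.88 in Nanos2-/-_Tg+, with 11.47 and 11.64 in Nanos2+/-, and Kif23 was higher by 0.20 (95% interval -0.29 to 0.70). Wholly above lay 8 genes (Ccna2, Cdca8, Kif23, Nusap1, Cdt1, Mcm4, Mcm6 and Pola1) and 0 below. For Cdca8 a second probe went the other way, at 10.34 and 10.51 in Nanos2-/- and 10.27 and 10.12 in Nanos2-/-_Tg+ (change of -0.23). The 8 are 20.5% of the members, close to the 20% of all probes that lay above, and 11.4% of all probes lay below. After quantile normalization 19 of 39 genes were higher (48.7%, against 49.6% of all probes). Then 7 lay wholly above (17.9%, against 17.1% of all probes) and 10 wholly below (25.6%, against 16%).

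**Figure D3:**
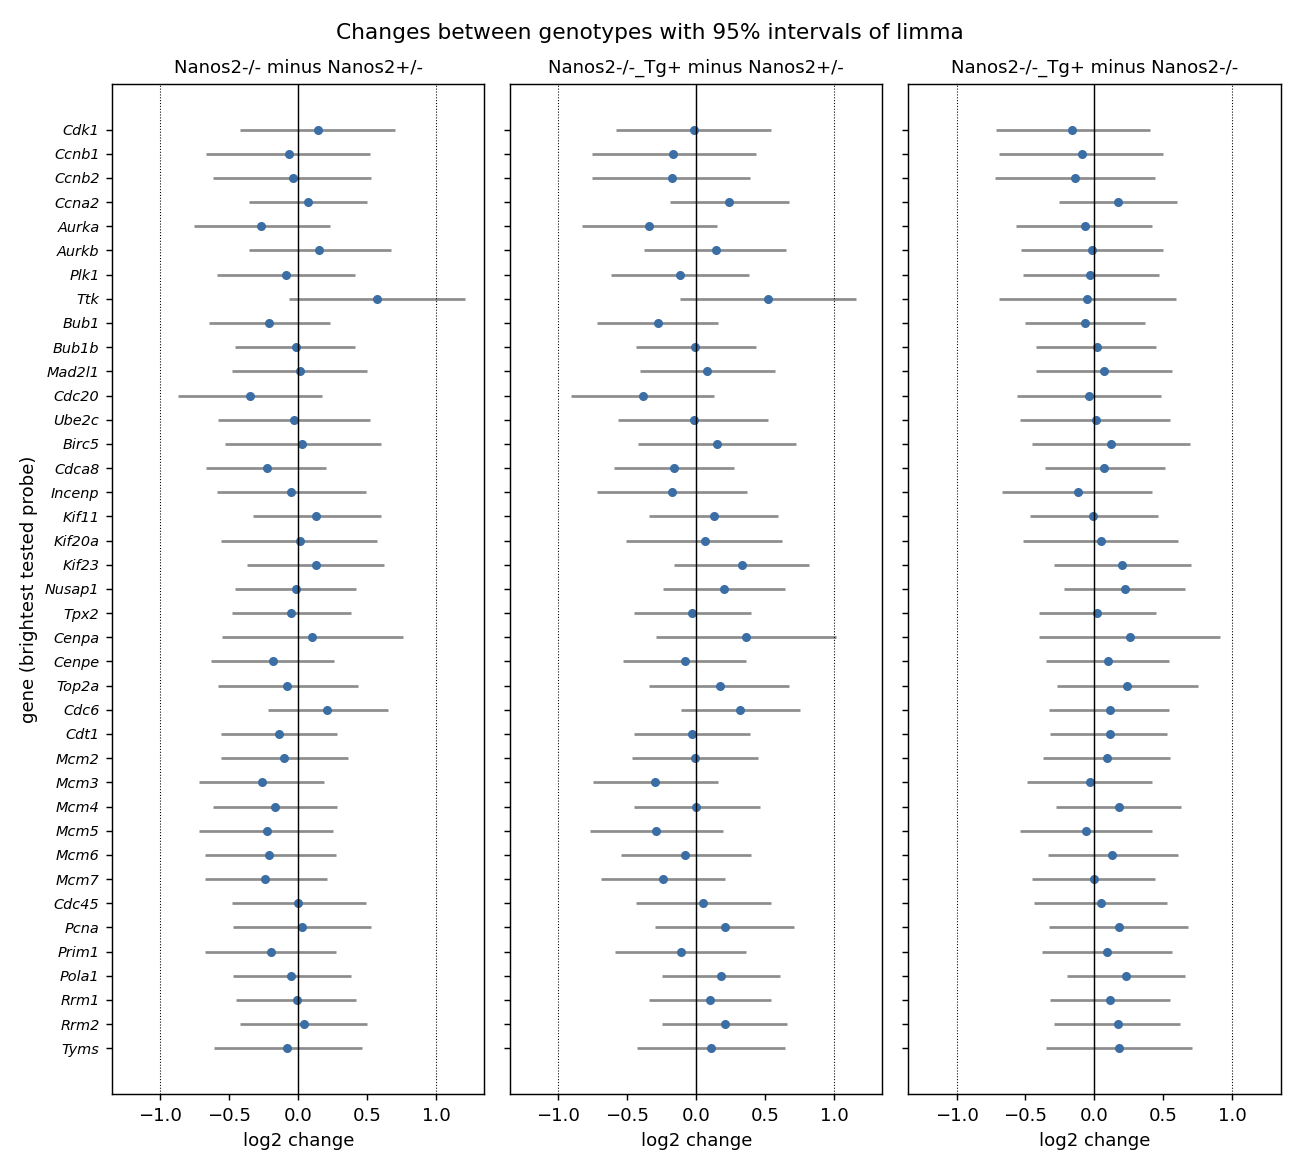
Change in log2 signal of each of the 39 genes in the 3 genotype comparisons, as points with 95% intervals of the limma fit. All intervals cross 0 and most lie within 2-fold, and Ttk at 0.57 and Cdc20 at -0.35 are the extremes of Nanos2-/- against Nanos2+/-.

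The sizes of the changes were also read without their sign. The median absolute change was 0.10 in Nanos2-/- against Nanos2+/-, where it was 0.19 over all probes, 0.16 against 0.20 in Nanos2-/-_Tg+ against Nanos2+/-, and 0.09 against 0.13 between Nanos2-/-_Tg+ and Nanos2-/-. In the main scaling none of the 39 genes was past 1.5-fold in any of these, while 9.09%, 11.4% and 4.41% of all probes were. Under normexp all 39 were past it in Nanos2-/- against Nanos2+/-, at 0.67 to 1.10, where the median of all probes was 0.56. At the 75th percentile the highest change between genotypes was 0.60. The members are brighter than most probes, so they differ from the rest of the array in signal as well as in function. The part of signal in these sizes was not tested. Split by motif, the 7 measured genes with the E2F letters had median changes of -0.21, -0.08 and 0.11 in the 3 comparisons, and the 26 without them -0.03, 0.02 and 0.07. The 17 genes with the CHR letters had -0.04, -0.02 and 0.00, and the 16 without them -0.06, 0.09 and 0.11. These are descriptions with no test.

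**Figure D4:**
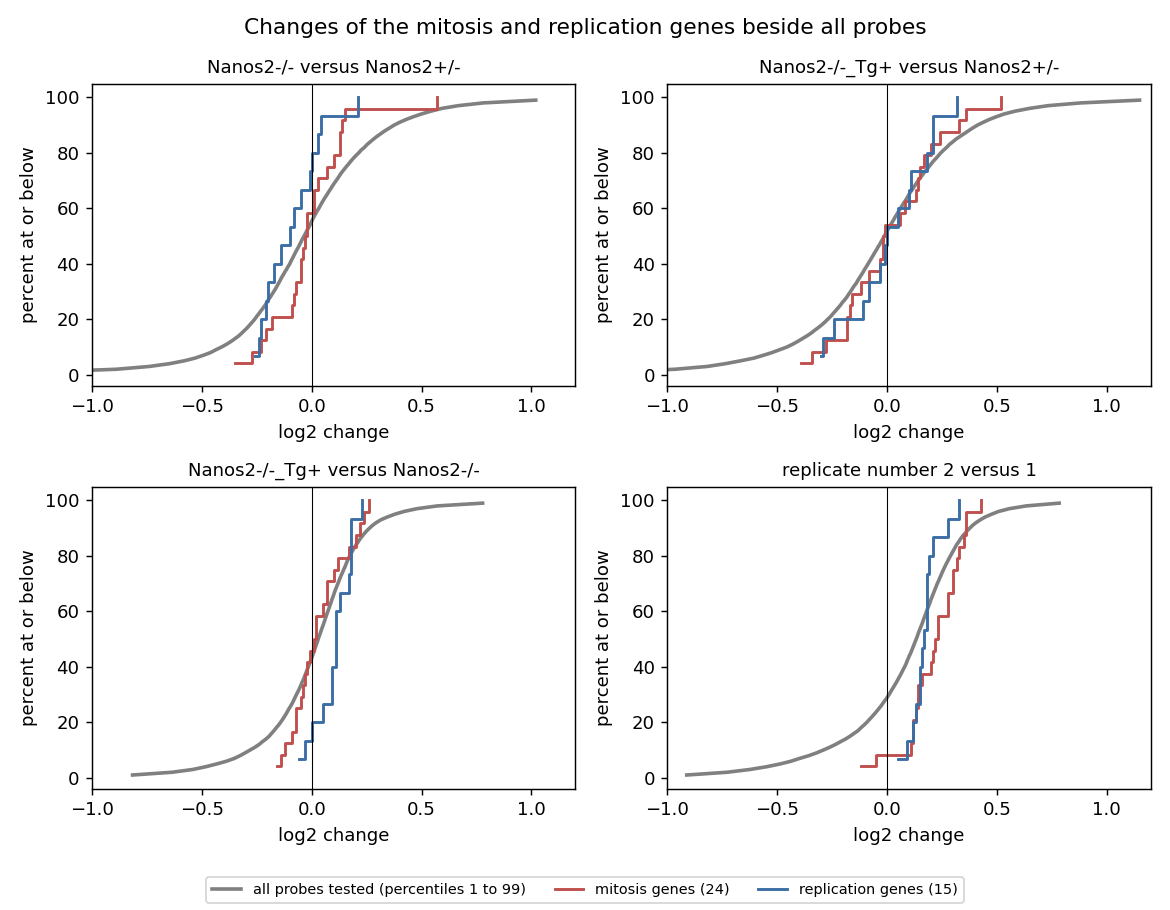
Percent of the 24 mitosis genes, of the 15 replication genes and of all 26710 probes tested (grey, percentiles 1 to 99) at or below a given change in log2 signal, for the 3 genotype comparisons and for replicate number 2 against 1. The gene curves span a narrower range than the grey curve, and for the replicate number they cross their middle at 0.22 (mitosis) and 0.17 (replication), to the right of the grey curve at 0.13.

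The replicate number, fitted with genotype in the model, gave 1 direction for most of these genes, and for most of all probes. Replicate 2 was higher than replicate 1 for 37 of the 39 genes (94.9%), against 71.1% of all probes. The median was 0.18, against 0.13 for all probes, with a range of -0.12 to 0.43. Kif23 and Top2a were the exceptions, at -0.12 and -0.05. No member probe was called, and 0% of all probes were. At an unadjusted p below 0.05 stood 7 of the 49 member probes, all higher, against 18.5% of all probes, and the lowest adjusted p among the genes was 0.24. The 95% interval lay within 2-fold for all 39. Replicate 2 was higher in all 3 genotypes for 26 genes (66.7%), against 37.6% of all probes, and lower in all 3 for 0, against 11.3%. A difference between replicates was known when the list was chosen, so the counts are a description.

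Cenpa had the largest value, 0.43 (SE 0.153, 95% interval 0.06 to 0.80, limma adjusted p = 0.24), and the array values given above show replicate 2 higher by 0.76 in Nanos2+/- and less in the other genotypes. Ccnb1 followed with 0.36 (SE 0.146, limma adjusted p = 0.268) and Birc5 with 0.36 (SE 0.13, limma adjusted p = 0.246). Kif20a, a kinesin of late mitosis, was at 13.60 and 14.13 in Nanos2+/-, 13.70 and 14.04 in Nanos2-/-, and 13.83 and 14.01 in Nanos2-/-_Tg+. Each genotype had the higher value on its replicate 2 (change of 0.35, SE 0.131, limma adjusted p = 0.248). Incenp and Tyms were each higher by 0.33 (limma adjusted p of 0.254 and 0.246), so both mitosis genes (median 0.22) and replication genes (median 0.17, 15 of 15 higher) took part.

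Within genotypes the median of replicate 2 minus replicate 1 was 0.29 in Nanos2+/- (36 of 39 genes higher), 0.12 in Nanos2-/- (33) and 0.17 in Nanos2-/-_Tg+ (33), where all probes had 0.23, 0.11 and 0.05. The genes higher on replicate 2 were 92.3%, 84.6% and 84.6%, against 71.9%, 66.6% and 57.9% of all probes. The highest of the 6 arrays was Nanos2+/- replicate 2 for 23 genes, Nanos2-/-_Tg+ replicate 2 for 13 and Nanos2-/- replicate 2 for 3. The lowest was Nanos2+/- replicate 1 for 18 genes and Nanos2-/- replicate 1 for 10. This count was not made over all probes. Their array medians, around each probe's own mean, were also lowest on Nanos2+/- replicate 1 (-0.10) and highest on Nanos2+/- replicate 2 (0.13).

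The replicate difference of the members was also set beside that of probes of like signal and read under other scalings. All probes tested had a replicate median of 0.00 in the dimmest of the 4 signal classes, 0.09 and 0.15 in the next ones and 0.20 in the brightest, while the 29 members in that brightest class had 0.18, the 9 in the class below it 0.18 and the 1 in the class below that 0.28. In the brightest class the members thus had no excess over all probes. The 9 in the class below it were at 0.18 against 0.15, and only 1 gene stands for the next class. Scaled to the 75th percentile, the members' median was 0.05 against 0.00, with 29 of 39 higher (74.4%, against 50% of all probes). In all 3 genotypes 9 (23.1%) were then higher, against 19.2% of all probes. After quantile normalization the members' median was 0.00 against 0.02, with 22 of 39 higher (56.4%, against 53.9%). In all 3 genotypes 6 (15.4%) were then higher, against 21.6%. Under normexp the members' median was 0.67 against 0.37, with all 39 higher, against 75.1% of all probes.

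Some markers of other cells differed with the replicate number as well. The germ cell markers had a median of 0.46, with 6 of 7 higher on replicate 2 in all 3 genotypes, and array medians of -0.70 and 0.38 in Nanos2+/-, -0.22 and 0.24 in Nanos2-/-, and -0.23 and 0.24 in Nanos2-/-_Tg+. Pou5f1, a pluripotency factor of fetal germ cells, was at 10.62 and 12.43, 10.53 and 12.39, then 10.78 and 12.61, higher by 1.83 (SE 0.118, limma adjusted p = 0.0884). It is named as the largest change of the list, whose changes ran from -0.16 to 1.83, with 1 of the 7 lower. The red blood cell markers went both ways, 2 of 6 being higher and 2 lower on replicate 2 in all 3 genotypes, with a median of 0.86, array medians from -0.63 to 0.63 and a median of -0.07 within Nanos2-/-. The Sertoli cell markers had a median of 0.20, with array medians from -0.15 to 0.22. Their part in the replicate difference of the division genes was not tested.

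**Figure D5:**
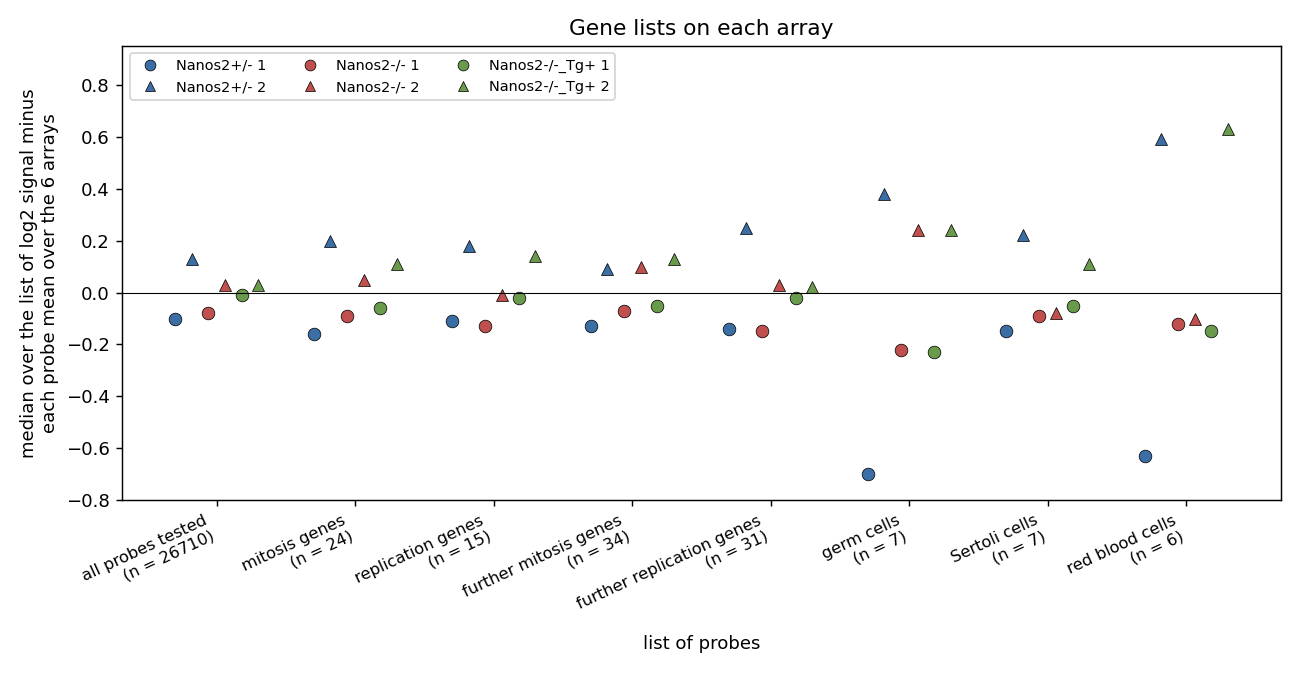
Median log2 signal, around each probe's own mean over the 6 arrays, of all probes tested, the mitosis and replication genes, further genes of both kinds and 3 marker lists, with circles for replicate 1, triangles for replicate 2 and colours for genotypes. The mitosis and replication medians are higher on replicate 2 in every genotype, and the germ cell medians (-0.70 to 0.38) and red blood cell medians (-0.63 to 0.63) spread more widely.

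Other genes of the cycle were read from a list of 102, of which 96 were measured. None had a limma adjusted p below 0.05 in any comparison. At an unadjusted p below 0.05 stood 7 (7.29%) in Nanos2-/- against Nanos2+/-, 8 (8.33%) in Nanos2-/-_Tg+ against Nanos2+/-, 0 between Nanos2-/-_Tg+ and Nanos2-/- and 14 (14.6%, 11 higher and 3 lower) for the replicate number, all below the shares of all probes given above. Their medians were -0.04, 0.01, 0.05 and 0.17. The 7 were Dbf4, E2f5 and Wee1, higher, and Cdkn1b, Cdkn2a, Dut and Pttg1, lower.

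Of the 10 inhibitors and pocket proteins, which hold cells in G1, 5 were higher and 5 lower in Nanos2-/- than in Nanos2+/-, with a median of 0.00. In Nanos2-/-_Tg+ 6 were higher and 4 lower. At an unadjusted limma p below 0.05 stood Rbl2 there, higher, with Cdkn1b and Cdkn2a, lower. Cdkn2a (the locus of p16 and p19ARF) was at 8.67 and 7.60 in Nanos2+/-, 7.20 and 7.07 in Nanos2-/-, and 7.19 and 7.22 in Nanos2-/-_Tg+. It was lower in Nanos2-/- (change of -1.0, SE 0.325, 95% interval -1.76 to -0.24, limma adjusted p = 0.41), and the Nanos2+/- arrays lay far apart. Cdkn1b, the inhibitor p27, was at 6.20 and 6.22, 5.86 and 5.74, then 5.69 and 5.71 (changes of -0.41 and -0.51, limma adjusted p of 0.549 and 0.321). Here both Nanos2+/- arrays were above all others and close together. Rb1, the pocket protein that holds E2F, was at 10.88 and 11.77, 11.70 and 11.80, then 12.00 and 11.82, with Nanos2+/- replicate 1 alone at the bottom.

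Among the G1 cyclins and kinases, Ccnd2 (cyclin D2) went against the members on the replicate number, at 13.60 and 13.24, 13.42 and 12.61, then 13.76 and 13.19 (change of -0.58, SE 0.139, limma adjusted p = 0.173). Its partner kinase Cdk6 went with them, at 7.53 and 9.26, 8.71 and 9.19, then 8.36 and 8.83 (change of 0.89, SE 0.265, limma adjusted p = 0.207). Each held its direction in all 3 genotypes. Another 3 of the 102 genes, in neither of these groups, were chosen after their values were seen. Wee1, the kinase that restrains Cdk1, was at 5.77 and 5.23, 6.17 and 6.18, then 6.08 and 6.66 (changes of 0.68 and 0.87, limma adjusted p of 0.507 and 0.267). Pttg1, the securin that guards sister chromatids until anaphase, was at 14.58 and 14.95, 14.22 and 14.26, then 14.27 on both (changes of -0.52 and -0.49, limma adjusted p of 0.491 and 0.405). Dbf4, which activates the origin-firing kinase Cdc7, was at 9.96 and 9.87, 10.39 and 10.68, then 10.29 and 10.69 (changes of 0.62 and 0.57, limma adjusted p of 0.443 and 0.365). In each of these 3 genes the Nanos2+/- arrays did not overlap with the other 4, which is a description, as the choice was made on the values. Separation from all 4 was not counted over all probes. In Nanos2-/- against Nanos2+/- alone, 14.3% of all probes lay wholly above and 21.7% wholly below.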

How the data were processed

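The 6 arrays had been hybridised with RNA of E14.5 male gonads, 2 for each genotype, and samples were grouped by the genotype in the labels. Per array, 45018 spots were deposited, 1639 being controls, as background-subtracted intensity from Agilent Feature Extraction (9.5 in the submitters' processing notes, 9.5.3.1 per the file headers). The authors' further steps, per the methods, were a floor of 5, scaling to the 50th percentile and centring of each gene on its median, which was not repeated here. The deposited value table held the same intensity within 0.497%. Flags for control, outlier, saturated and well-above-background spots came from the same files.

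Controls and outlier spots (54 to 82 per array) were dropped, arrays were scaled to a common 50th percentile (factors 0.878 to 1.28), then a floor of 5 was set, log2 was taken and spots of a probe were averaged. No spot was saturated, median intensities were 66.2 to 96.6, and 64.1 to 66.7% of probes were well above background. The number of arrays limits the precision. Tested were 26710 probes that exceeded background clearly, by the scanner's flag, on both arrays in 1 or more genotypes, after 1 probe without a value in a genotype was dropped. Genotypes were compared with limma 3.58.1 (lmFit and eBayes, R 4.3.3) over all 6 arrays, and replicate numbers with genotype as a term, at 4.55 and 4.22 prior degrees of freedom. A call needed a Benjamini-Hochberg adjusted p below 0.05 over all probes tested and a 2-fold change. Intervals are 95% intervals of that fit. Scripts were tested on simulated data. Figures used Python 3.11.15 and matplotlib 3.10.9.

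Same-numbered arrays deviated together from their genotype means, with r of 0.355, 0.313 and 0.259 over 26698 probes in the 3 pairs of genotypes. The correlation, and not a statement in the labels, is the source of this pairing.

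Gene names came from a table of RefSeq accessions, which matched 23374 of 41174 probes. Values on every array are given for 16 genes whatever their values, 15 of them measured, and for the 5 members with the largest change in each comparison. Other members are named where a count rests on them. The members and all lists were chosen with earlier results of these data known. Alternatives tried were scaling at the 75th percentile, quantile scaling, normexp (on the median signal, as no mean signal was used here), other floors and filters, outliers kept, the value table, a variance trend, the replicate number as a block, fewer arrays and the mean over a gene's probes.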

Additional observations from a re-analysis of the deposited data

How the results depend on the processing

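No member probe was called under any alternative, 22 for each genotype comparison and 19 for the replicate number, and 0 of the gene changes reached a limma adjusted p below 0.05. Over all probes the calls were far less stable: 18 in Nanos2-/- against Nanos2+/- became 0 under normexp and 285 without Nanos2+/- replicate 2, 28 in Nanos2-/-_Tg+ against Nanos2+/- became 0 and 287 under the same settings, 5 between Nanos2-/-_Tg+ and Nanos2-/- became 0 under normexp and 168 without Nanos2-/-_Tg+ replicate 1, and 0 for the replicate number became 136 with a variance trend. The members' median change moved most under normexp, to 0.89 in Nanos2-/- and 0.89 in Nanos2-/-_Tg+ against Nanos2+/- (all probes 0.56 and 0.52) and to 0.67 for the replicate number (all probes 0.37), and to 0.00 for the replicate number under quantile normalization (all probes 0.02); the cause was not tested. Leaving out 1 array in turn gave medians of -0.23 to 0.07 in Nanos2-/- against Nanos2+/-, with the -0.23 coming from the fit without Nanos2+/- replicate 1, -0.13 to 0.14 in Nanos2-/-_Tg+ against Nanos2+/-, -0.04 to 0.13 between Nanos2-/-_Tg+ and Nanos2-/-, and 0.13 to 0.22 for the replicate number. Of the 117 changes of single genes between genotypes, 6 changed sign at the 75th percentile, 22 after quantile normalization and 50 under normexp. The replicate number as a block left the medians at -0.05, -0.01 and 0.07, with a lowest adjusted p of 0.316, and changed no call of a member. A lone array of a genotype was assumed to vary like the others. With 2 arrays a genotype, the 95% interval stayed within 1.5-fold for 15, 12 and 21 of the 39 genes in the 3 genotype comparisons, so that a change of 1.5-fold is not excluded for the others.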

Other observations

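Prim2 encodes the large subunit of primase, partner of Prim1 and Pola1, and was chosen after its values were seen. Its single probe was well above background on all 6 arrays, with log2 signals of 10.21 and 4.41 in Nanos2+/-, 10.12 and 5.02 in Nanos2-/-, and 9.94 and 11.24 in Nanos2-/-_Tg+. Replicate 1 was thus 55.7-fold higher than replicate 2 in Nanos2+/- and 34.3-fold higher in Nanos2-/-, while in Nanos2-/-_Tg+ replicate 2 was 2.46-fold higher than replicate 1. The replicate difference was -3.20 (SE 1.29, limma adjusted p = 0.265). Its partners held much closer values, Prim1 between 12.93 and 13.42 and Pola1 between 11.50 and 11.84 over the same arrays.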
